A study of Mus musculus with 3 samples.

Results

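The PEA3 genes Etv1, Etv4 and Etv5 were followed through every cell cluster of 3 mouse melanomas. They were taken by name from the count tables and made up 3 of the 36530 features. Across 12670 cells, 1651 UMIs of Etv1, 4921 of Etv4 and 1336 of Etv5 were counted, where a UMI (unique molecular identifier) stands for 1 captured RNA molecule. The 3 tumors came from C57BL/6 mice of a model carrying Braf LSL.V600E and Tyr.CreER, among other alleles, in which 4-OH tamoxifen on the skin switches on a Cre recombinase driven by a melanocyte promoter. The reporter strain adds Rosa26 LSL.tdTomato, and the labels do not say which of the 3 animals carried it. The groups were 1 untreated tumor, 1 tumor that had regressed under vemurafenib, an inhibitor of mutant Braf given by gavage, and 1 that had progressed under it. The labels give no age.

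PEA3 factors are Ets-family transcription factors that bind a GGAA core and switch on genes of growth, branching and invasion. Their genes are induced when receptor tyrosine kinases signal through Ras, Raf, Mek and Erk, and they are repressed by Capicua (Cic), which Erk inactivates. The proteins are marked for destruction by the ubiquitin ligase Cop1 with its partner Det1. ETV1 is known as an oncogene of melanoma.

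Promoter windows of the PEA3 genes are shown because Cic is among the regulators measured. The RefSeq table (GRCm38.p6) gave 4 windows for Etv1 and Etv5 and 2 of them lay clear of annotated exons. Each is printed as the 250 bases before the start, 5′ to 3′ on the coding strand, and both lie inside introns of the longer gene models. Capitals mark matches, on either strand, to the Ets core AGGAAG or to the Cic octamers TGAATGAA, TGAATGAG, TGAATGGA, TGAATGGG, TCAATGAA, TCAATGAG, TCAATGGA and TCAATGGG.
Etv1, chr12:38779832-38780081, plus strand: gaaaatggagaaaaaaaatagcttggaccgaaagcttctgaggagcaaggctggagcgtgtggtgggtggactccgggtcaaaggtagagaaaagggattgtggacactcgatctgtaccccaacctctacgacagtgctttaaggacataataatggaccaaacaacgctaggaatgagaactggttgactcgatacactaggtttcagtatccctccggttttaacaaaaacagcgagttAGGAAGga
Etv5, chr16:22438369-22438618, minus strand: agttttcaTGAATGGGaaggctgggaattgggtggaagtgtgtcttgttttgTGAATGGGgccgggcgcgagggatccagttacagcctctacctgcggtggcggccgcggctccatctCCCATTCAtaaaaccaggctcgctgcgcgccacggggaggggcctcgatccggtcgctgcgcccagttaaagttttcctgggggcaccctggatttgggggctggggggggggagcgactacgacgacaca
The printed Etv5 window held 3 Cic octamers, starting 242, 198 and 131 bases before the start. The other Etv5 window (chr16:22439571-22439820), which overlaps an exon at the annotated 5′ end of the gene, held 0, as did both Etv1 windows. Of 32851 windows, not filtered for exons, 0.0578% held at least 3 and 5.86% at least 1. The printed Etv1 window held 1 Ets core, found in 29.5% of windows. The octamers were chosen with these sequences in view, and a match describes letters only.

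There were 4095 cells from the untreated tumor, 3726 from the regressed and 4849 from the progressed one, and their median depths were 4496, 2658 and 4566 UMIs. The authors' 25 clusters were used as named, and tumor cells (Tumor1, Tumor2), stroma (Stroma1 to Stroma10) and immune cells were also pooled. Levels are a gene's UMIs per 1000000 UMIs of the cell group (CPM) with exact Poisson 95% intervals. Comparisons between tumors are log2 ratios of these levels, followed in parentheses by the bounds of an exact conditional binomial 95% interval. Each group is 1 tumor and cells are not replicates, so no test between tumors was possible and all intervals cover counting error only. Tumor, treatment outcome and library cannot be told apart. The regressed tumor also stood apart in sex-linked RNA, with Xist at 0.403 CPM against 1494 and 1735 CPM in untreated and progressed cells, so sex cannot be told apart from response either. Tumor cells carried the melanocyte marker list (7 of 7 genes with UMIs in each tumor, 1039 to 2275 CPM summed) and the transgene (1359 to 4239 CPM). In Tumor1, however, Mlana was at 0 in all 3 tumors, and Tyrp1, Tyr and Pmel were each at 0 in at least 1. RNA of other cells was present in every library: outside red blood cells, clusters of the regressed tumor held 1131 to 2298 CPM of haemoglobin RNA, against 19.5 to 161 CPM in the untreated and 0 to 12.4 CPM in the progressed tumor.

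Etv1 was a gene of tumor cells and of a few stromal clusters. Over groups of at least 10 cells its level was highest in Tumor2 (151 CPM, regressed tumor only) and Tumor1 (49.9 CPM untreated, 179 CPM regressed, 91.8 CPM progressed), and their ranges overlapped. Stroma7 (77.2 CPM untreated, 79.6 CPM progressed), Stroma10 (71.2 CPM, regressed only) and Stroma5 (60.7 CPM untreated, 44.1 CPM progressed) came next. Their tumor values did not overlap, but their counting intervals did. These were 67.2 to 93.7 CPM in progressed Stroma7, 63.9 to 79.15 CPM in Stroma10 and 48.1 to 75.5 CPM in untreated Stroma5. From Stroma5 downwards neighbours overlapped through almost the whole order. The lowest was Undefined1, a keratin-rich cluster, at 2.05 to 3.22 CPM. Erythrocytes came just above it at 3.90 CPM, but from 2 UMIs (0.47 to 14.1 CPM), so counting error does not separate them.

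Etv4 was high in some stromal clusters and in the keratin-rich Undefined1, but not in Undefined2 (10.8 to 27.8 CPM), which is also keratin-rich. It was highest in Stroma5 (194 CPM untreated, 235 CPM progressed), Stroma4 (141 CPM untreated, 162 CPM regressed, 219 CPM progressed) and Stroma7 (180 CPM untreated, 163 CPM progressed). The tumor values of Stroma4 overlapped those of both others, whereas those of Stroma5 and Stroma7 lay apart. The counting intervals of untreated Stroma5 (171 to 219.5 CPM) and progressed Stroma7 (145 to 183 CPM) overlapped. Among neighbours in the order, the step below Stroma7 was the only one of 24 without overlap of tumor values. The counting interval of progressed dividing cells (131 to 168 CPM) still overlapped that of progressed Stroma7. Dividing cells (48.6 to 149 CPM), Stroma10 (85.2 CPM), Undefined1 (58.1 to 96.3 CPM) and Stroma1 (61.0 CPM) followed. Tumor1 came next with 18.1 CPM untreated, 46.3 CPM regressed and 72.4 CPM progressed. Stroma4, Stroma5 and Stroma7 were fibroblast-like by collagen genes and Pdgfra, with 26184 to 48362 CPM of the fibroblast list.

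Etv5 was spread more evenly, and macrophages were among its highest clusters. Its order ran from Tumor2 (51.7 CPM), Stroma7 (64.3 CPM untreated, 18.1 CPM progressed) and macrophages (37.2 CPM untreated, 26.0 CPM regressed, 57.7 CPM progressed) to neutrophils (3.29 CPM untreated, 3.36 CPM regressed), and to cells high in mitochondrial RNA (MitoHigh), which held 0 UMIs of it. Neighbours overlapped at 23 of 24 steps. The untreated Stroma7 value rested on 5 UMIs in 18 cells (20.9 to 150 CPM). With groups of at least 50 cells, Stroma7 (18.1 CPM, progressed only) stood at rank 14 of 23. The macrophages carried their own marker list at 6322 to 8935 CPM, in which all 4 genes had UMIs. Mast cells held Etv5 at 16.6 to 33.4 CPM, and monocytes at 1.78 to 13.8 CPM.

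**Figure D1:**
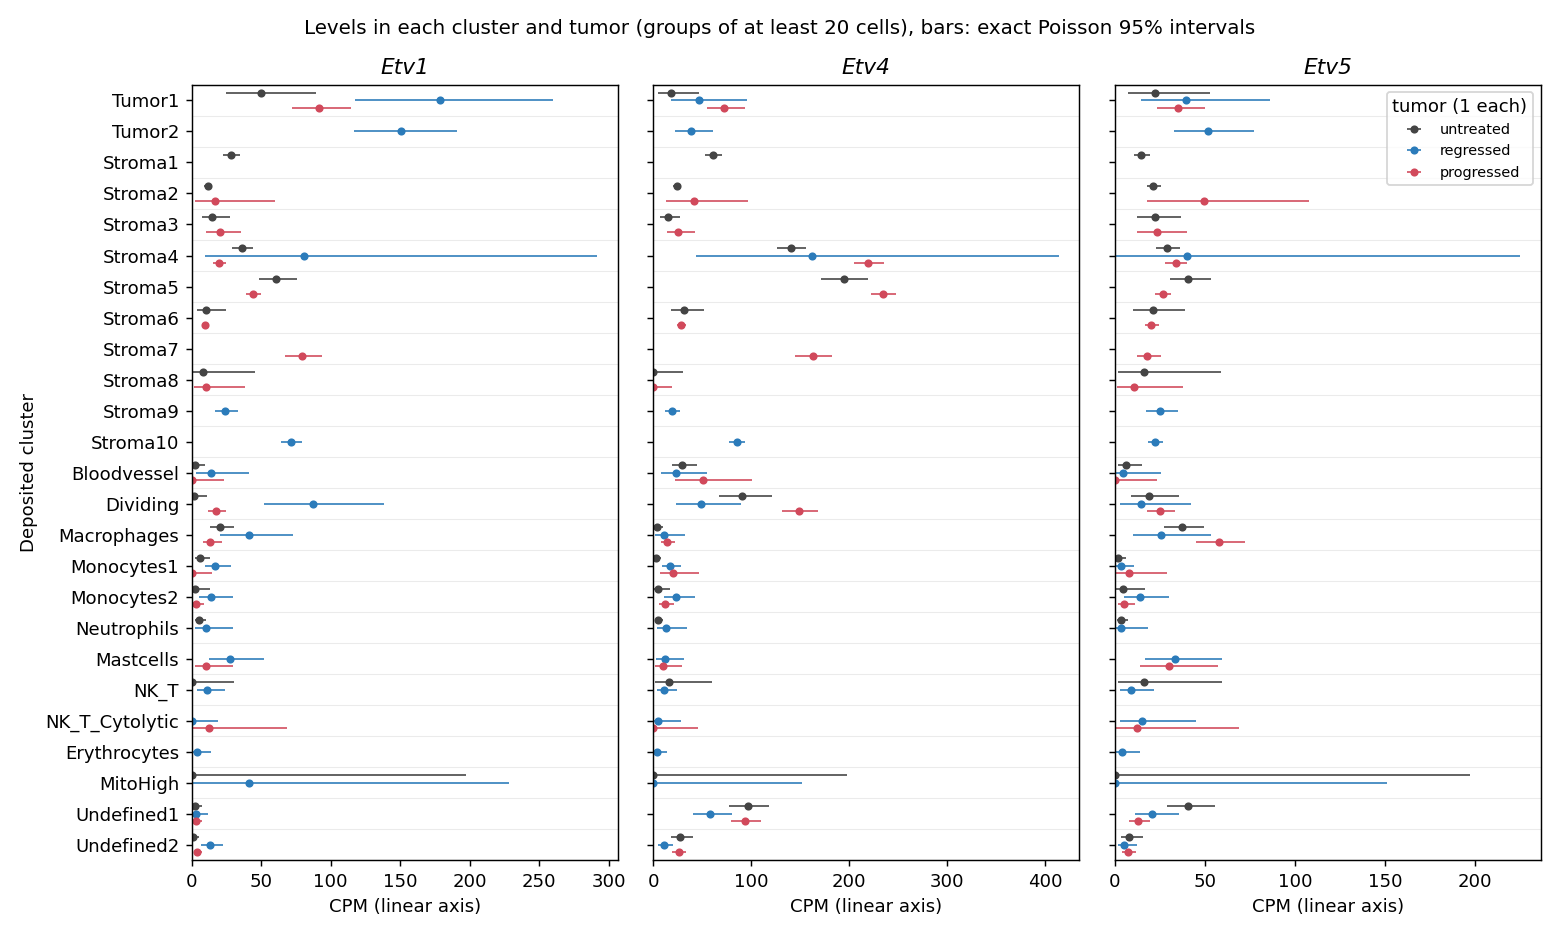
Levels of Etv1, Etv4 and Etv5 (x axis, CPM, linear and scaled for each gene) in each deposited cluster (y axis), 1 point per tumor with its exact Poisson 95% interval, for groups of at least 20 cells. Etv1 is highest in Tumor1 and Tumor2, Etv4 in Stroma4, Stroma5 and Stroma7 at 141 to 235 CPM, and Etv5 shows no cluster far above the others.

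In tumor cells Etv1 was highest in the regressed tumor and Etv4 in the progressed one. Tumor2 made up 349 of the 410 regressed tumor cells, against 4 of 48 untreated and 4 of 160 progressed ones, so the pooled class sits mostly in different clusters. Etv1 stood at 45.5 CPM in the untreated (12 UMIs in 48 cells), 158 CPM in the regressed (94 UMIs in 410 cells) and 96.5 CPM in the progressed tumor (81 UMIs in 160 cells). The regressed tumor was thus above both others and the untreated one lowest. Relative to untreated cells Etv1 was 3.47-fold higher in regressed ones (log2 ratio 1.79, 0.92 to 2.80), and 1.63-fold lower in the progressed than in the regressed one (-0.71, -1.16 to -0.27). It was still 2.12-fold higher in the progressed than in the untreated tumor (1.08, 0.20 to 2.10). Within Tumor1 alone this last interval reached 0 (0.88, -0.04 to 1.94).

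Etv4 in tumor cells stood at 22.7 CPM untreated (6 UMIs), 40.3 CPM regressed (24 UMIs) and 72.7 CPM progressed (61 UMIs). Its order was therefore untreated, regressed, progressed, with regressed and untreated not separated by counting error (0.82, -0.50 to 2.40). The progressed tumor was 3.20-fold above the untreated (1.68, 0.47 to 3.18) and 1.80-fold above the regressed one (0.85, 0.15 to 1.60), and within Tumor1 alone the interval of the latter reached 0 (0.64, -0.49 to 2.02). In progressed tumor cells 75.4% of the Etv4 UMIs lay in cells with 2 or more, up to 11 in 1 cell. Etv5 stood at 30.3, 48.7 and 38.1 CPM (8, 29 and 32 UMIs), and the intervals of its 3 ratios all held 0, that of the progressed against the untreated tumor reaching from -0.82 to 1.66.

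At the level of all features, 17.7% of 9422 were at least 2-fold higher in regressed than in untreated tumor cells and 8.47% at least 2-fold lower. Of the PEA3 genes 1 of 3 was higher, Etv1, and 0 lower. Against regressed cells 6.94% of features were higher and 14.7% lower in progressed ones, where 0 of the 3 passed 2-fold. Against untreated cells 11.2% were higher and 8.6% lower in progressed ones, where Etv1 and Etv4 were higher, 2 of 3. Whether the PEA3 genes' count differs from this background was not tested, since 3 genes give no basis for it.

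**Figure D2:**
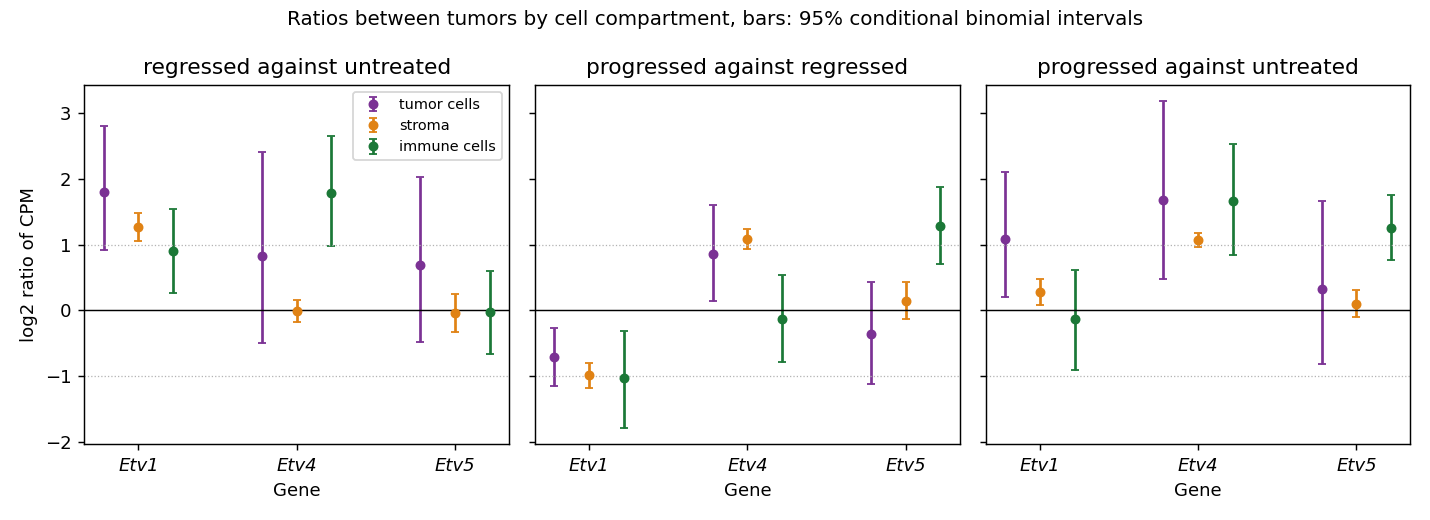
Log2 ratio of CPM (y axis) of Etv1, Etv4 and Etv5 (x axis) between tumors in tumor cells, stroma and immune cells, with 95% conditional binomial intervals, and dotted lines at 2-fold. Etv1 is above 0 for regressed against untreated and below 0 for progressed against regressed in all 3 compartments.

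In pooled stroma the same 2 genes differed between tumors and Etv5 did not. Etv1 stood at 24.8 CPM untreated, 59.8 CPM regressed and 30.1 CPM progressed, from 349, 384 and 530 UMIs. The regressed tumor was again the highest, 2.41-fold above the untreated one (1.27, 1.06 to 1.48), and the progressed tumor was 1.98-fold below it (-0.99, -1.18 to -0.79). Progressed stroma was slightly above untreated stroma (0.28, 0.084 to 0.48). Without Stroma10 the 2 comparisons with the regressed tumor came to -0.020 (-0.54 to 0.47) and 0.31 (-0.16 to 0.83), so the higher pooled regressed level rested on Stroma10. Most of the regressed stromal cells left were Stroma9 (310 cells), a cluster with 0 untreated cells.

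Etv4 in stroma stood at 70.0 CPM untreated, 69.4 CPM regressed and 147 CPM progressed, from 985, 446 and 2583 UMIs. Untreated and regressed stroma were level (-0.01, -0.18 to 0.15), and progressed stroma was 2.10-fold above untreated (1.07, 0.96 to 1.18) and 2.12-fold above regressed stroma (1.08, 0.94 to 1.23). Without Stroma10 regressed stroma lay below untreated stroma (-1.77, -2.33 to -1.27), but it then consisted mostly of Stroma9, which held 0 untreated cells. In Stroma4, which both tumors held, Etv4 stood at 162 CPM regressed (4 UMIs in 20 cells) and 141 CPM untreated (0.20, -1.68 to 1.57). Etv5 in stroma stood at 23.4, 22.7 and 25.2 CPM, and its 3 intervals held 0 and lay between -0.34 and 0.43. Among 16366 features 16.1% were at least 2-fold higher and 7.83% lower in regressed than in untreated stroma (Etv1 higher, 1 of 3). For progressed against regressed stroma the shares were 5.52% and 18.8% (Etv4 higher, 1 of 3), and for progressed against untreated stroma 4.49% and 7.55% (Etv4 higher, 1 of 3).

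The tumors differed in which stromal clusters they held. Stroma10 held 1537 of 1918 regressed stromal cells, with 4 untreated and 7 progressed cells, and it contributed 72.0% of all Etv4, 61.2% of all Etv1 and 46.4% of all Etv5 UMIs of the regressed library. Stroma2 made up 43.5% of untreated stromal cells and 0.76% of progressed ones, and Stroma5 6.28% and 22.0%. Over the 7 stromal clusters with at least 10 cells in both the untreated and the progressed tumor, the 2 tumors could be set to 1 common mixture. For Etv4 the pooled log2 ratio was then 1.03, the ratio of levels at a fixed mixture 0.53 (untreated mixture) or 0.29 (progressed mixture), and the ratio of mixtures at fixed levels 0.74 or 0.49. Both components of the Etv4 difference therefore had the same direction.

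For Etv1 the components had opposite directions. The pooled ratio over these clusters was 0.35, the levels at a fixed mixture gave -0.19 or -0.36, and the mixture alone gave 0.71 or 0.54. Progressed Etv1 was lower in Stroma4 and Stroma5, and slightly lower in Stroma6, where the interval held 0 (-0.15, -1.46 to 1.53, 5 untreated UMIs). Its values in Stroma2, Stroma3, Stroma7 and Stroma8 were slightly above the untreated ones, with 1 to 10 UMIs in the tumor that held fewer. For Etv5 the levels gave 0.62 with the untreated mixture, in which the 26 progressed Stroma2 cells carry a large weight, and -0.41 with the progressed mixture, so no direction can be read.

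**Figure D3:**
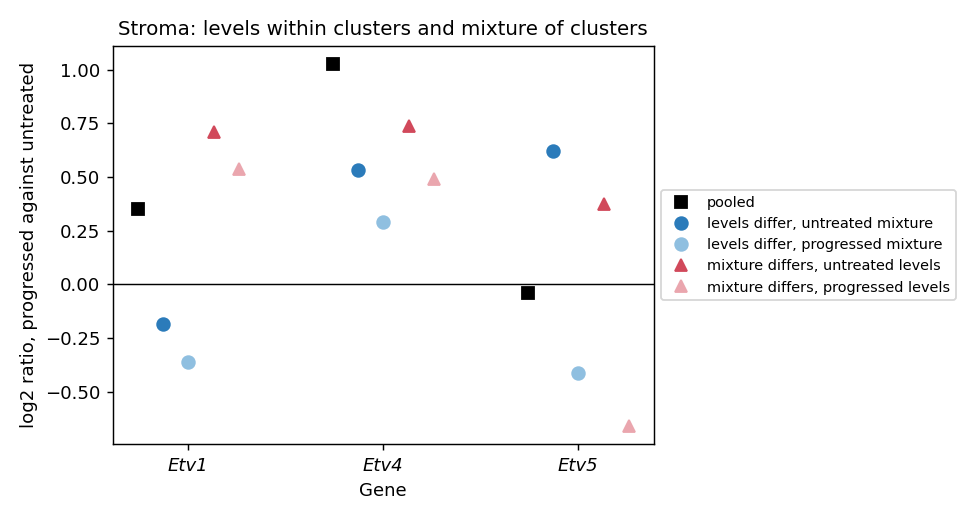
Log2 ratio for progressed against untreated stroma (y axis) of Etv1, Etv4 and Etv5 (x axis), pooled (squares), with levels differing at a fixed mixture of clusters (circles) and with the mixture differing at fixed levels (triangles), without intervals. For Etv4 all points lie above 0, while for Etv1 the circles lie at -0.19 and -0.36, below 0.

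Within single clusters of at least 20 cells in both tumors, the regressed tumor held more Etv1 than the untreated one in 8 of 8 clusters with a ratio (median 1.65). It was lower in the progressed than in the regressed tumor in 9 of 9 (median -1.60). The 8 clusters were Tumor1, Stroma4, dividing cells, Undefined2, macrophages, Monocytes1, Monocytes2 and neutrophils. Neutrophils (0.94, -1.61 to 3.0, 3 regressed and 8 untreated UMIs) are taken below as the reference for RNA from other cells. The regressed levels of Monocytes1 (17.0 CPM) and Monocytes2 (13.8 CPM) lay within the neutrophil interval. Of the features with a ratio in at least as many clusters, 8.36% were higher in every cluster in the first comparison and 6.73% lower in every cluster in the second. In 4 of the 8 and 4 of the 9 clusters the interval left out 0. Free RNA moved with this, since haemoglobin RNA was also higher throughout the regressed library, where erythrocytes held Etv1 at 3.90 CPM and neutrophils at 10.1 CPM, and its part in these ratios was not tested. Tumor1 was 1 of these (1.84, 0.78 to 3.0). Undefined2 was another (12.9 CPM regressed against 0.994 CPM untreated, 12 and 1 UMIs), but its regressed level lay within the interval of regressed neutrophils (2.08 to 29.5 CPM). In dividing cells Etv1 stood at 1.93 CPM untreated (1 UMI), 87.5 CPM regressed (18 UMIs) and 17.2 CPM progressed (29 UMIs), and this cluster carried the fibroblast list at 2921 to 22088 CPM, the keratinocyte list at 3414 to 11551 CPM and the melanocyte list at 19.3 to 155.5 CPM, whose part in the Etv1 values was not tested.

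Between progressed and untreated tumors, Etv1 and Etv4 went opposite ways within the same fibroblast-like clusters. In Stroma4 Etv4 stood at 219 CPM progressed (805 UMIs) and 141 CPM untreated (362 UMIs), a log2 ratio of 0.64 (0.46 to 0.82). Etv1 stood there at 19.6 CPM progressed (72 UMIs) and 36.1 CPM untreated (93 UMIs), a log2 ratio of -0.88 (-1.34 to -0.42). In both cases the 2 tumors' Poisson intervals lay apart. In Stroma5 Etv4 gave 0.27 (0.078 to 0.47), Etv1 -0.46 (-0.83 to -0.078) and Etv5 -0.62 (-1.07 to -0.14). In Stroma6, the largest progressed cluster with 1255 cells, none of the 3 was separated from the 83 untreated cells.

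Outside the stroma Etv4 was higher in the progressed than in the untreated tumor in Tumor1 (2.0, 0.57 to 3.92), dividing cells (0.71, 0.26 to 1.19), macrophages (1.78, 0.30 to 3.57) and Monocytes1 (2.91, 0.55 to 5.60). The ratios in Tumor1, macrophages and Monocytes1 rested on 4, 5 and 3 untreated UMIs. Progressed macrophages stood at 14.2 CPM (18 UMIs) and progressed Monocytes1 at 20.1 CPM (5 UMIs). The progressed library held only 4 neutrophils as a reference, and the part of RNA from other cells in these ratios was not tested. In progressed Tumor1 76.7% of the 60 Etv4 UMIs lay in cells with 2 or more, up to 11 in 1 cell. Over the 13 clusters with a ratio, 10 lay above 0 (median 0.75) and 6 had an interval above 0, while the keratin-rich clusters Undefined1 (-0.04) and Undefined2 (-0.11) were level. In Undefined1 Etv4 was lower in the regressed tumor than in the untreated one (58.1 against 96.3 CPM, -0.73, -1.33 to -0.16). Etv5 in Undefined1 was highest untreated, with 41.0 CPM untreated, 21.0 CPM regressed and 12.7 CPM progressed (progressed against untreated -1.68, -2.54 to -0.88).

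**Figure D4:**
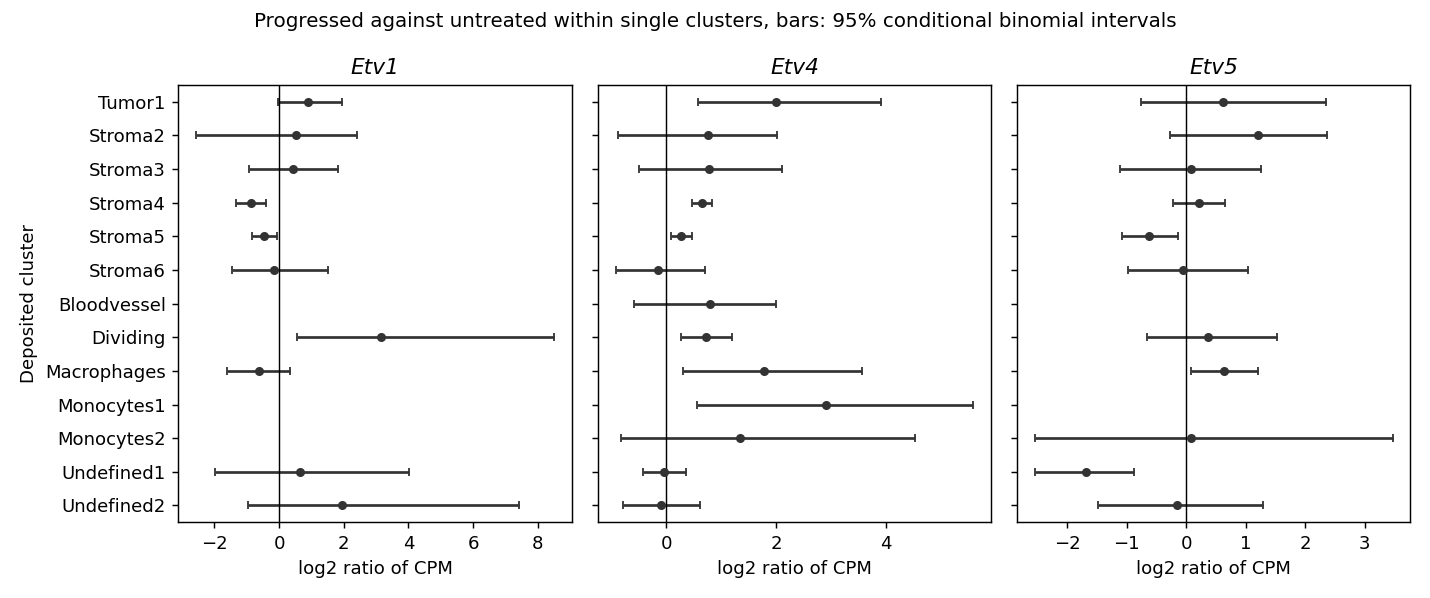
Log2 ratio of CPM for progressed against untreated (x axis) within each deposited cluster of at least 20 cells in both tumors (y axis), with 95% conditional binomial intervals, 1 panel per gene. In Stroma4 and Stroma5 Etv1 lies below 0 and Etv4 above 0.

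In immune cells Etv5 was highest in the progressed tumor. It reached 12.7 CPM untreated, 12.5 CPM regressed and 30.2 CPM progressed (57, 36 and 91 UMIs), the progressed tumor being 2.39-fold above the untreated (1.26, 0.76 to 1.76). Macrophages held 45, 7 and 73 of these UMIs, and within macrophages the progressed tumor was 1.55-fold above the untreated (0.63, 0.078 to 1.20) and 2.22-fold above the regressed one (1.15, 0.035 to 2.51). Macrophages made up 339 of 683 progressed and 312 of 1053 untreated immune cells. Etv1 (8.31 to 17.0 CPM) and Etv4 (4.22 to 14.5 CPM) were low in immune cells. Etv4 stood at 4.22 CPM untreated, 14.5 CPM regressed and 13.3 CPM progressed (19, 42 and 40 UMIs). Its progressed level was 3.15-fold above the untreated one (1.655, 0.83 to 2.525). The share of all features past 2-fold was not computed for immune cells. Neutrophils alone held 5.26 and 10.1 CPM of Etv1 and 4.6 and 13.4 CPM of Etv4 in the untreated and regressed tumor. Regressed neutrophils were taken as a reference for RNA from other cells. Their intervals were 2.08 to 29.5 CPM for Etv1, 3.66 to 34.4 CPM for Etv4 and 0.085 to 18.7 CPM for Etv5. For all 3 genes the pooled levels of regressed immune cells lay within them. The reference rested on 3, 4 and 1 UMIs, and the 957 pooled cells include its 216 neutrophils. It therefore cannot tell expression from RNA of other cells, and the pooled levels are not read as expression. For Etv5, regressed macrophages (26.0 CPM, 10.45 to 53.5) and mast cells (33.4 CPM, 16.7 to 59.8) lay above 18.7 CPM, but their own intervals reached below it. Macrophages alone held Etv1 at 20.7 CPM untreated, 40.8 CPM regressed and 13.4 CPM progressed (25, 11 and 17 UMIs). The regressed value lay above the neutrophil interval for Etv1, but its own interval (20.4 to 73.05 CPM) overlapped that of the neutrophils.

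The share of cells with a UMI followed depth as well as level. Etv1 UMIs were found in 18.8% (untreated), 18.0% (regressed) and 35.6% (progressed) of tumor cells, at medians of 4078, 832 and 4656 UMIs per cell. After every cell was thinned to 1000 UMIs, which left out 244 regressed cells, 3 untreated and 5 progressed ones, the shares were 4.44%, 10.8% and 9.68%. The unthinned shares go against the CPM, which was highest in regressed cells, and no order is read from them. In stroma 24.2%, 18.8% and 38.8% of cells had an Etv4 UMI, and 6.16%, 6.75% and 11.6% after thinning (95% Clopper-Pearson 10.5% to 12.7% for the last). In the reference clusters, Etv4 was found in 0.77% of untreated and 1.85% of regressed neutrophils (medians of 3257 and 1252 UMIs) and in 3.33% of regressed erythrocytes (median 8464 UMIs). In untreated and regressed tumor cells 10.4% and 4.88% had an Etv4 UMI, at medians of 4078 and 832 UMIs. Both lay within the interval of the deeper regressed erythrocytes, 0.41% to 11.5%, but shares at unlike depth do not rank these groups. By level, regressed tumor cells held Etv4 at 40.3 CPM (25.8 to 59.9) and regressed erythrocytes at 3.90 CPM (0.47 to 14.1). Regressed neutrophils held 13.4 CPM (3.66 to 34.4), an interval that overlaps that of the tumor cells. The progressed share was 16.2%, and that library held only 4 neutrophils and 1 erythrocyte as a reference.

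Cells with UMIs of more than 1 PEA3 gene were a minority. Among progressed stromal cells 394 of 3422 held 2 of the 3 genes and 45 held all 3, and 248 held Etv1 with Etv4, 220 Etv4 with Etv5 and 61 Etv1 with Etv5. Among progressed tumor cells 18 of 160 held 2 and 5 held 3. Cells with 2 or more were deeper, with a median of 6738 UMIs against 3501 in progressed stromal cells with none.

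The other ERK targets that the study followed were set beside the PEA3 genes. The study chose this list, which is not independent evidence of a direction. Dusp6 and Spry4 are feedback inhibitors of the pathway, Dusp4 a nuclear phosphatase of Erk, Fosl1 an AP-1 factor and Phlda1 a growth-factor-induced gene. In tumor cells 4 of 6 were at least 2-fold higher in the progressed than in the regressed tumor and 1 lower. Over all features tested these shares were 6.94% and 14.7%. The median log2 ratio was 1.40, against -0.11 over all features tested. Phlda1 (641 to 1947 CPM), Dusp6 (139 to 356 CPM), Spry4 (33.6 to 91.7 CPM) and Fosl1 (8.39 to 29.8 CPM) were higher. Dusp4 (73.8 to 23.8 CPM, -1.63, -2.47 to -0.84) was lower, the direction Etv1 also had, while Etv4 had that of the 4 others.

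Regressed against untreated, Dusp4 was likewise higher in tumor cells (11.4 CPM untreated, 73.8 CPM regressed, 2.70, 1.06 to 5.03), as Etv1 was, and Fosl1 lower (60.6 to 8.39 CPM, -2.85, -4.66 to -1.34), with a list median of -0.21 against 0.13 over all features. Against untreated cells Phlda1 (1.04, 0.85 to 1.24) and Spry4 (1.60, 0.55 to 2.86) were higher in progressed cells and Fosl1 lower (-1.03, -1.99 to -0.023), with a list median of 0.81 against 0.018. In regressed stroma, set against untreated stroma, 3 of 6 were at least 2-fold lower and 1, Dusp4, was higher (median -1.04 against 0.16). Over all features 7.83% were lower and 16.1% higher. Dusp6 went from 161 CPM untreated to 64.8 CPM regressed and 190 CPM progressed, and Phlda1 from 794 to 263 and 1067 CPM. Dusp4 stood at 2.2, 12.6 and 4.72 CPM, with the regressed tumor highest, which is the order of Etv1 in stroma.

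**Figure D5:**
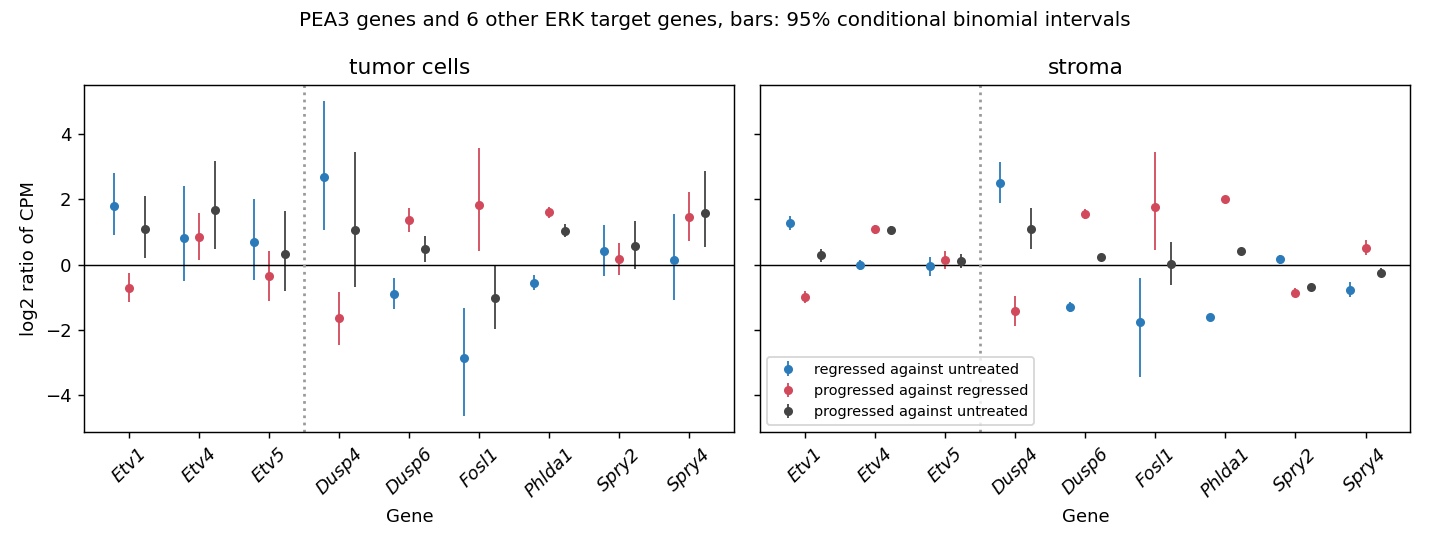
Log2 ratio of CPM (y axis) between tumors, with 95% conditional binomial intervals, for the 3 PEA3 genes (left of the dotted line) and 6 other ERK target genes (x axis) in tumor cells and stroma. Etv1 and Dusp4 lie above 0 for regressed against untreated and below 0 for progressed against regressed in both compartments, whereas Phlda1 and Dusp6 have the opposite signs.

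Of the 7 regulators, the ubiquitin ligase gene Cop1 stood at 30.3 CPM untreated, 68.8 CPM regressed and 16.7 CPM progressed in tumor cells. Its progressed level was below the regressed one (-2.04, -3.04 to -1.14). Atxn1, whose protein works with Cic, was higher in regressed cells (19 UMIs) than in untreated ones (2 UMIs), with a ratio of 2.07 (0.021 to 5.22). Cic itself gave intervals that held 0 in both comparisons with regressed tumor cells (33.6 CPM regressed, 64.4 CPM untreated, 52.4 CPM progressed). The regulators' medians in tumor cells were -0.73 (regressed to untreated, 0.13 over all features), -0.35 (progressed to regressed, -0.11) and -0.58 (progressed to untreated, 0.018). In stroma 0 of 7 passed 2-fold in any comparison. Of all features there, 16.1% were higher and 7.83% lower in regressed than in untreated stroma. The shares were 5.52% and 18.8% for progressed against regressed stroma, and 4.49% and 7.55% for progressed against untreated stroma.

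Of the 14 receptors and ligands upstream, few were counted in tumor cells. Gdnf, a ligand of the Ret receptor, stood at 0 CPM untreated, 10.1 CPM regressed and 45.3 CPM progressed in tumor cells (0, 6 and 38 UMIs). The progressed level was above the regressed one (2.17, 0.91 to 3.70), and above the untreated one by a log2 ratio of at least 1.99, taken against 3 UMIs. Kit stood at 18.9, 25.2 and 0 CPM (5, 15 and 0 UMIs), and the progressed level lay below the regressed one by a log2 ratio of -2.82 or further, again against 3 UMIs. Egfr was lower in progressed (5 UMIs) than in regressed tumor cells (13 UMIs, -1.87, -3.71 to -0.29). In stroma Kit stood at 0.64 CPM untreated, 14.9 CPM regressed and 1.19 CPM progressed, and the fibroblast growth factor Fgf7 at 112 CPM untreated and 45.8 CPM regressed (-1.29, -1.47 to -1.11). In that library mast cell RNA reached 342 CPM of the 4-gene mast list in Stroma10 and 320.5 CPM in tumor cells, and its part in the Kit value was not tested.

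Of the 9 genes known as PEA3 targets, 4 were counted often enough in tumor cells. Their medians were -0.77 (regressed to untreated, 0.13 over all features), -0.47 (progressed to regressed, -0.11) and -0.68 (progressed to untreated, 0.018), and 0, 0 and 0 of the 4 were at least 2-fold higher, beside 17.7%, 6.94% and 11.2% of all features. In the same comparisons 1, 1 and 2 of the 4 were at least 2-fold lower, beside 8.47%, 14.7% and 8.6% of all features. The matrix protease gene Mmp14 was named after its values were seen. It stood at 239 CPM untreated, 366 CPM regressed and 207 CPM progressed in tumor cells, and at 254, 357 and 228.5 CPM in stroma. In both comparisons with the regressed tumor these were the directions of Etv1. Progressed against untreated, Mmp14 was lower where Etv1 was higher, and in tumor cells the Mmp14 interval held 0 (-0.20, -0.63 to 0.24). The filament gene Vim stood at 7559 CPM untreated, 3711 CPM regressed and 3394 CPM progressed, and the adhesion gene Icam1 at 45.5, 30.2 and 11.9 CPM. In stroma Icam1 was lowest in the regressed tumor (114 CPM untreated, 31.4 CPM regressed, 79.9 CPM progressed). Of the 12 other Ets factors, Elk3 was higher (1.01, 0.44 to 1.60) and Elk4 lower (-1.15, -2.23 to -0.12) in progressed than in regressed tumor cells. Regressed stroma held more Elk4 than untreated stroma (1.80, 1.51 to 2.11), and progressed stroma less than regressed stroma (-1.73, -2.0 to -1.45), the directions of Etv1. Spi1, a myeloid factor, gave 1.63 (1.20 to 2.06) and -2.77 (-3.31 to -2.26) in the same comparisons. Macrophage markers in stroma also stood highest in the regressed tumor (24.0 CPM untreated, 72.1 CPM regressed, 30.1 CPM progressed, 4 of 4 genes with UMIs in each), and their part in the Spi1 values was not tested.

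Over the 53 groups of a cluster in a tumor with at least 20 cells, the genes most like each PEA3 gene were found by Pearson's correlation of log2(CPM + 1) among 12964 genes with at least 200 UMIs. For Etv1 they included Cdh19 (r = 0.83), S100b (0.78), Gfra1 (0.76) and Lgi4 (0.70). For Etv4 they were Mfap3l (0.83), Laptm4b (0.82), Cdkn2b (0.79), Rida (0.78) and Csrp1 (0.76), and for Etv5 Specc1 (0.78), Rhoq (0.77), Dolk (0.76), Igip (0.74) and Chpf (0.73). Among themselves Etv1 and Etv4 gave r = 0.31, Etv1 and Etv5 0.49, and Etv4 and Etv5 0.50, all below the values of the 5 nearest genes. These are descriptions, since the groups share 3 libraries and differ in depth.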

How the data were processed

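The authors sequenced 3′ droplet libraries (10x) of single cells from 3 tumors, which the series' design text describes as sorted. Per the submitters' processing notes, GSNAP, Seurat 2.2.0 and the build GRCm38 (mm10) were used, and the annotation release is not given in the sources used here. The deposited tables hold raw UMI counts per gene and cell, and the cluster labels are those the authors deposited. Of 36530 features 31049 were matched to a symbol through Entrez IDs. Table sums exceeded the deposited totals per cell by 4.42 to 6.09%, and the table sums were used. No removal of doublets is stated and no doublet caller was run. 0 cell IDs were shared between libraries and 0 other per-sample columns were left unused.

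The members and gene lists were chosen with earlier results of these data known. UMIs were summed per cluster or compartment and tumor. Log2 ratios were formed for clusters with at least 20 cells in both tumors, and levels were ordered over groups with at least 10. A count of 0 was set to 3 UMIs, which gives a bound, and no ratio was formed where that passes the other value. The share of features past 2-fold was taken over those with at least 10 UMIs. Named genes were the members, list genes past 2-fold with an interval that leaves out 0 (at most 4 per list and comparison), and the 5 most correlated genes per member. Cic was named outside that rule, for its role, after its values were seen. Alternatives were TMM scaling, equal weight per cell, thinning, other minimums, Spearman correlation and, chosen after seeing the data, leaving out Stroma10, a common stromal mixture and single clusters. Python 3.11.15, numpy 2.4.6, scipy 1.17.1, pandas 2.3.3, R 4.3.3 and edgeR 4.0.16 (TMM factors only) were used, and the scripts were tested on simulated data. Some alleles, marker genes and correlated genes are not reported here.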

Additional observations from a re-analysis of the deposited data

Results flagged for a closer look

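Within a tumor comparison, some clusters had an interval above 0 and others an interval below 0 for the same gene, and the difference between clusters was not tested. For Etv1 the log2 ratio of progressed to untreated was -0.88 in Stroma4 and -0.46 in Stroma5, and 3.15 in dividing cells, where the untreated value rests on 1 UMI. For Etv4 the ratio of regressed to untreated was -1.37 in Undefined2 and -0.73 in Undefined1, both rich in keratin RNA, and 2.29 in Monocytes2 and 2.67 in Monocytes1, which held 2 and 3 untreated UMIs. For Etv5 the ratio of progressed to untreated was -1.68 in Undefined1 and -0.62 in Stroma5, and 0.63 in macrophages.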

How the results depend on the processing

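Of the log2 ratios recomputed under the alternatives, 61 of 62 in tumor cells, 44 of 66 in stroma, 44 of 45 in immune cells and 98 of 105 in single clusters stayed within the original 95% interval, and 4 whose original interval left out 0 changed sign, all of Etv1 in stroma. Values whose interval held 0 could also change sign, as Etv5 did. The causes were not tested. Without Stroma10, which left mostly Stroma9 in the regressed tumor, Etv1 in stroma gave -0.020 for regressed to untreated and 0.31 for progressed to regressed. Etv4 gave -1.77 and 2.85. With the untreated mixture of stromal clusters, progressed to untreated came to -0.19 for Etv1, 0.53 for Etv4 and 0.62 for Etv5. With equal weight for the 4 stromal clusters found in every tumor, Etv1 gave 0.95 (regressed to untreated) and -0.23 (progressed to untreated), Etv4 0.45 (progressed to regressed) and 0.55 (progressed to untreated), and Etv5 -0.46 (regressed to untreated) and 0.45 (progressed to regressed). TMM scaling moved stroma to 1.02 (Etv1) and -0.26 (Etv4) for regressed to untreated, and to -0.68 (Etv1), 1.39 (Etv4) and 0.45 (Etv5) for progressed to regressed. Equal weight per cell gave -1.20 (Etv1) and 0.89 (Etv4) for progressed to regressed stroma and 0.94 (Etv4) for progressed to untreated stroma. Thinning gave 0.88 for Etv4 in progressed to regressed stroma and -0.88 for Etv5 in regressed to untreated tumor cells.

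Thinned shares of tumor cells with a UMI were 4.44%, 10.8% and 9.68% for Etv1 (untreated, regressed, progressed), 5.81% for Etv4 in the progressed tumor, and 3.61% and 1.94% for Etv5 in the regressed and progressed tumors. In stroma they were 2.5%, 5.71% and 2.79% for Etv1, 6.16%, 6.75% and 11.6% for Etv4, and 2.39%, 2.25% and 2.44% for Etv5. With no minimum count, 14.5% of features were at least 2-fold lower in progressed than in untreated tumor cells. With groups of at least 50 cells, 8, 5 and 7 neighbouring clusters lay apart in their tumor values for Etv1, Etv4 and Etv5. By Spearman's rho, 1 of the 5 genes most like Etv5 was kept. No paired analysis was possible because each group is 1 tumor. Untreated tumor cells (48) and their 6 to 12 UMIs per gene limit every comparison with them.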
